A study of Mus musculus with 98 samples.

Results

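CD4 T cells that lacked Stat5b and kept 1 copy of Stat5a were compared with wild-type cells by RNA-seq. The comparison uses 4 of the 98 samples of the series, replicates 1 and 2 of the groups titled BBA and WT in 1 experiment. BBA cells have the genotype Stat5a+/- Stat5b-/-, and the mirror-image genotype of the same experiment, titled AAB, is Stat5a-/- Stat5b+/- (2 libraries). WT cells are wild type. All 6 libraries share the rest of their history: C57BL/6 mice, pooled spleen and peripheral lymph nodes, naive cells sorted as CD4+CD44-CD25-, then antibodies to CD3 on the plate and to CD28 in solution, IL-2, and a culture titled Th0 of 4 days (96 h). The labels name neither a Cre nor a floxed allele for this experiment and give no age. They do not say whether replicates 1 and 2 came from different mice, so every p-value below measures only the spread between these libraries, which may be technical.

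STAT5A and STAT5B are closely related transcription factors whose genes lie side by side. IL-2 binds a receptor made of CD25 (Il2ra), CD122 (Il2rb) and the common gamma chain (Il2rg), JAK1 and JAK3 then phosphorylate STAT5, and STAT5 dimers enter the nucleus and bind the palindrome TTCNNNGAA. In activated CD4 T cells this pathway is known for inducing its own feedback inhibitors of the SOCS family, the survival gene Bcl2 and the receptor chain Il2ra, for restraining Il2, and for supporting glycolysis and regulatory T cell genes.

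The sequences below are shown because they carry this palindrome, in capitals, near the start of genes that were lower in BBA cells. They come from RefSeq on GRCm38.p6, run 5′ to 3′ on the gene's strand, and were read from windows of 250 bases before to 50 bases after each annotated start. Lta, the gene of lymphotoxin alpha, has a match 152 and another 16 bases before its start, and Cish, a feedback inhibitor, has a pair beginning at its start. Aldoc has more than 1 annotated start: window 1 held no match, and the stretch printed is from window 2.
Lta, chr17:35205352-35205521, minus strand: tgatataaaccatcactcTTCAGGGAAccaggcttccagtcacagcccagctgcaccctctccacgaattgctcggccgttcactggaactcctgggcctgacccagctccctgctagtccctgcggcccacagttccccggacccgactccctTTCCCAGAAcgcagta
Cish, chr9:107296654-107296683, plus strand: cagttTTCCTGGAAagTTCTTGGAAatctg
Socs3, chr11:117969502-117969531, minus strand: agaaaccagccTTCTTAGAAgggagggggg
Tnfrsf18, chr4:156026212-156026241, plus strand: ctgctctacacTTCACAGAAggcctttaca
Il7r, chr15:9530000-9530029, minus strand: agttcaggagcTTCAGGGAAtaccaagatg
Ncf1, chr5:134229695-134229724, minus strand: aagctcaaaaaTTCTCAGAAagtgaaagac
Aldoc, chr11:78324063-78324134, plus strand: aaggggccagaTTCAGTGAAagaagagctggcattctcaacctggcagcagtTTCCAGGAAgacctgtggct
The palindrome reads the same on both strands and was searched as those letters. Of 32851 windows of this kind in the genome, 8.3% held it. Among the 23 genes listed as IL-2-STAT5 targets, 17 had a window, and 5 of their 21 windows (23.8%) held a match. Over all genes tested, the share was 6.79% of windows for genes called higher in BBA cells, 7.08% for genes called lower and 7.16% for genes not called. A match is a description of the letters and not evidence of binding.

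The counts of each library were scaled to CPM, the counts of a gene relative to its library's TMM-scaled total, by edgeR. BBA libraries held 21692028 and 19202462 counts, AAB libraries 19170435 and 10223800, and WT libraries 8810804 and 8917597, so the wild-type values have the larger counting error. All 6 libraries expressed CD4 T cell markers at 4322 to 4872 CPM summed over 12 genes, and Cd4 itself had 874 and 857 CPM in BBA against 987 and 866 CPM in WT libraries. All 6 carried Xist and 0 to 4 counts of Uty, with Ddx3y, Eif2s3y and Kdm5d at 0, so no library stood apart by sex. Pax5 and Csf1r, defining genes of B cells and macrophages, had 0 counts in all 6, but other markers of these cells were detected. Over the BBA, AAB and WT libraries, the B cell gene Cd79b had 74, 34 and 43 counts. The myeloid genes Cd68 and Emr1 had 100, 62 and 118 counts and 54, 42 and 2 counts. In bulk RNA a drop in the number of expressing cells and a drop in transcript per cell cannot be told apart, which applies to every value that follows.

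The deleted genes followed the labels in direction. Stat5b had 28.7 and 31.2 CPM in BBA, 54.0 and 57.1 CPM in AAB and 268 and 283 CPM in WT libraries. In BBA cells it thus stood at 10.9% of the wild-type mean (log2 fold change -3.20 ± 0.0757, SE, edgeR adjusted p = 5.33e-10). These reads were not at zero in the Stat5b-null libraries (629 and 613 counts), whereas S5KO libraries with control vectors ranged from 0.981 to 7.55 CPM. The part of the gene they cover is not given by a table of counts per gene, and reads of the close paralog Stat5a could be among them. Stat5a, of which BBA cells have 1 copy, had 97.6 and 108 CPM in BBA, 4.69 and 4.92 CPM in AAB and 198 and 194 CPM in WT libraries. Its BBA mean was 52.5% of wild type (log2 fold change -0.93 ± 0.0702, SE, edgeR adjusted p = 1.35e-06). The single remaining copies were not left at the same share, since Stat5b in AAB cells stood at 20.2% of its wild-type mean. Stat5b reads stood at 10.9% in BBA cells, which lack the gene, so part of that 20.2% may not come from the kept copy.

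**Figure D1:**
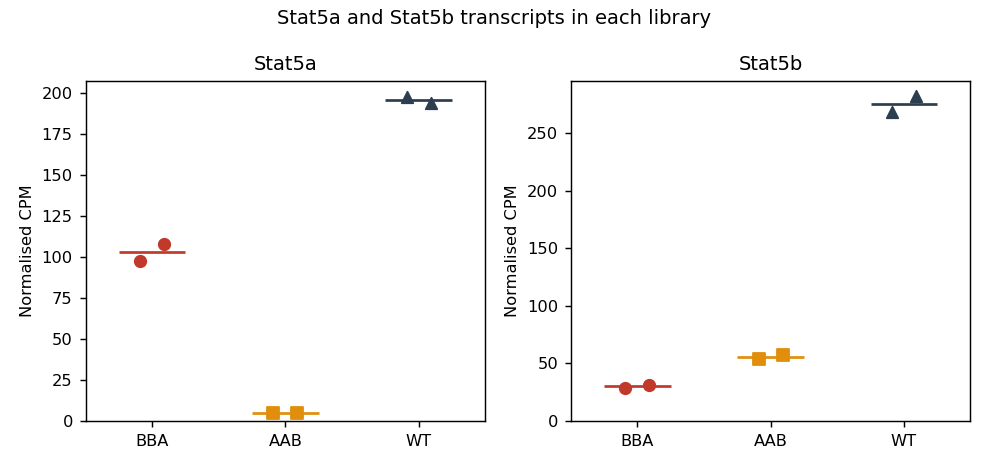
Normalised CPM of Stat5a (left) and Stat5b (right) in each library, with BBA, AAB and wild type from left to right. Each point is 1 library and each horizontal line the mean of 2. Stat5a stands at 97.6 and 108 CPM in BBA libraries against 198 and 194 CPM in wild type, and Stat5b at 28.7 and 31.2 against 268 and 283 CPM.

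The loss of Stat5b and of 1 Stat5a copy went with differences in a large share of the genes measured. Of 12392 genes tested, 3560 were called higher and 3509 lower in BBA than in WT cells at an adjusted p below 0.05 in edgeR's quasi-likelihood test, which is 57% of all genes. Of these, 749 were higher and 1361 lower by more than 2-fold. The median log2 fold change over all genes was 0.01. TMM scaling centres the bulk of genes near 0, so this median and the near-equal counts called in each direction follow in part from the method. Since 57% of all genes were called, 28.7% higher and 28.3% lower, a count of called members below is to be read against those shares.

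Among genes with a mean log2 CPM of at least 4 over the BBA and WT libraries and no overlap between them, those that fell furthest included several with few transcripts in BBA cells. Egln3, an oxygen-sensing prolyl hydroxylase, had 8.44 and 6.83 CPM in BBA, 5.05 and 4.82 CPM in AAB and 663 and 753 CPM in WT libraries. Its log2 fold change against wild type was -6.53 ± 0.109 (SE, edgeR adjusted p = 7.89e-11), a 92.3-fold lower level. Tgm2, the cross-linking enzyme transglutaminase 2, had 3.83 and 1.48 CPM in BBA against 658 and 362 CPM in WT libraries. Lama5, a laminin chain of the basement membrane, had 2.10 and 2.24 CPM in BBA against 321 and 271 CPM in WT libraries. The log2 fold changes were -7.55 and -7.09 for Tgm2 and Lama5. The remaining 12 of the 15 largest falls chosen by the same rule were Fam132a, Socs2, Espn, Aldoc, Coro2a, Slc2a3, Lta, Fam71b, Ncf1, Treml2, Pim1 and Zfp608, with log2 fold changes between -5.22 and -3.55.

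The 15 largest rises at a mean log2 CPM of at least 4, a level that leaves out genes low in most libraries such as Il2, had log2 fold changes between 1.99 and 5.60. Cadm1, a cell adhesion molecule, had 200 and 135 CPM in BBA, 382 and 268 CPM in AAB and 2.70 and 4.15 CPM in WT libraries. Its binding partner Crtam, an adhesion receptor of activated T cells, had 120 and 108 CPM in BBA against 10.9 and 16.5 CPM in WT libraries. The log2 fold changes of Cadm1 and Crtam were 5.60 ± 0.310 and 3.06 ± 0.185 (SE). The choice of these 15 genes required that BBA and WT libraries not overlap. Arc (3.36), Cyr61 (3.19), Pou2af1 (3.13), Dsp (3.04), Serpine2 (3.02), Chst2 (2.72), Lad1 (2.53), Idi2 (2.03) and Wisp1 (1.99) were among the others on the log2 scale. The BBA libraries disagreed most for Kifc3, a kinesin motor (162 and 73.7 CPM), and Mid1, a microtubule-associated ubiquitin ligase (38.3 and 107 CPM), against 2.94 and 4.61 CPM and 8.23 and 5.76 CPM in WT libraries. Pno1 and Trmt61a, which act in ribosome assembly and in tRNA methylation, completed the 15 at 2.07 and 2.03.

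**Figure D2:**
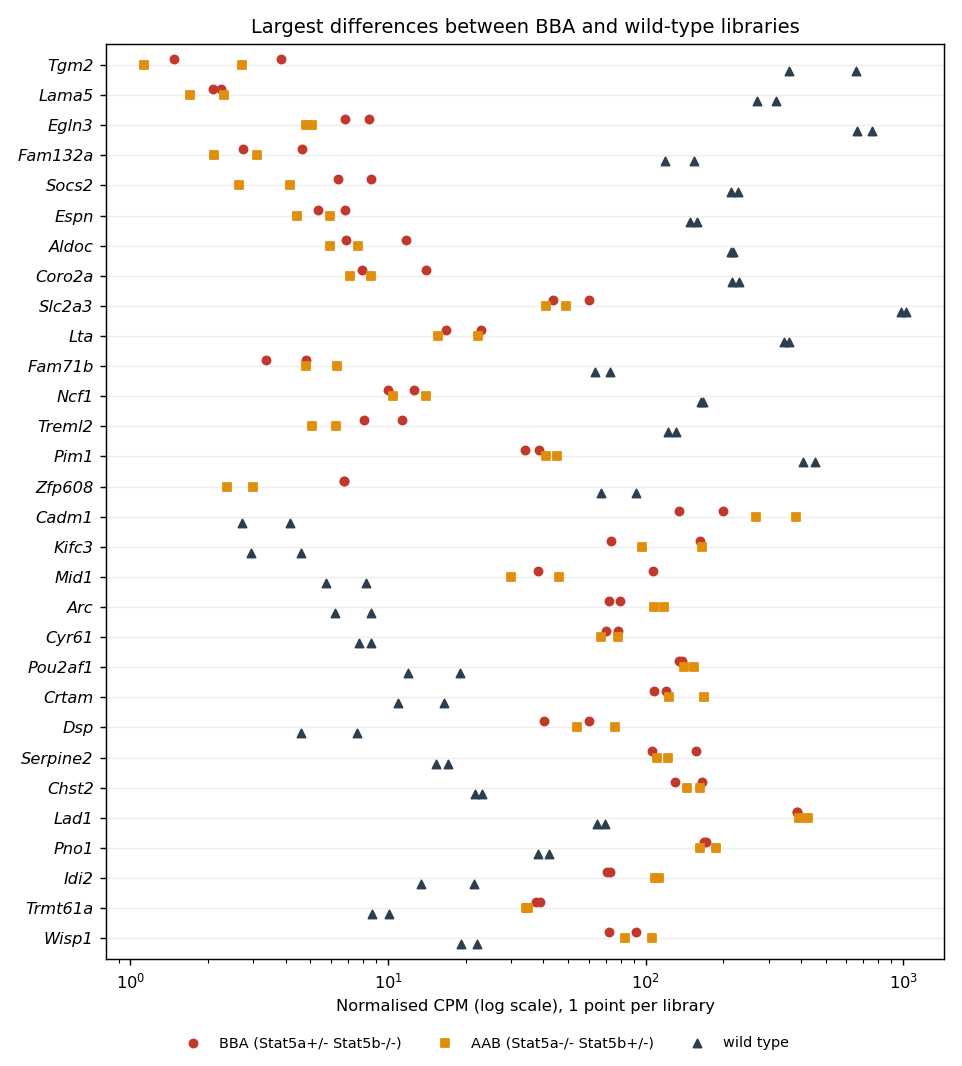
Normalised CPM on a log axis for the 15 genes that fell furthest and the 15 that rose furthest in BBA against wild-type libraries among those with a mean log2 CPM of at least 4, 1 point per library, with AAB libraries between them. For Egln3 the BBA libraries sit at 8.44 and 6.83 CPM and the wild-type libraries at 663 and 753 CPM. In all 30 genes the BBA and wild-type points do not overlap, which the choice of genes required.

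Genes listed as targets of the IL-2-STAT5 pathway were mostly lower. Of 22 tested members of a 23-gene list, 20 were lower and 1 was higher in BBA cells, with a median log2 fold change of -2.27. The feedback inhibitors Cish, Socs2, Socs3 and Socs1 all fell. Cish had 85.6 and 72.9 CPM in BBA against 460 and 448 CPM in WT libraries, and Socs2 had 6.39 and 8.56 CPM against 227 and 214 CPM. Their log2 fold changes were -2.52 ± 0.0914 and -4.89 ± 0.136 (SE). Neither gene overlapped between BBA and WT libraries, but the rule that placed Socs2 among the largest falls required this. The share of all tested genes without overlap is not given, so the separation adds little to these fold changes.

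Survival and effector targets of the list fell as well. Bcl2, which protects T cells from apoptosis, had 46.6 and 39.6 CPM in BBA against 515 and 495 CPM in WT libraries (log2 fold change -3.55 ± 0.0839, SE, edgeR adjusted p = 5.33e-10). Pim1, a growth-promoting kinase, had 38.5 and 34.1 CPM in BBA against 407 and 453 CPM in WT libraries. Lta, whose upstream sequence is printed above, had 16.8 and 23.0 CPM in BBA against 346 and 359 CPM in WT libraries. Lrrc32 displays latent TGF-beta at the cell surface. It had 0.274 and 0.306 CPM in BBA against 86.2 and 89.9 CPM in WT libraries, a log2 fold change of -8.21 ± 0.164 (SE). So few counts in BBA leave the size of this fold more uncertain than its SE. Gzmb, encoding the cytotoxic protease granzyme B, was at 54.1 and 23.1 CPM against 383 and 376 CPM.

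Some listed targets moved little. Myc, the growth regulator, had 234 and 232 CPM in BBA against 285 and 311 CPM in WT libraries, a called difference of -0.36 ± 0.0699 on the log2 scale (SE, edgeR adjusted p = 0.00124). The OX40 gene Tnfrsf4 differed by -0.27, and the anti-apoptotic gene Bcl2l1 was the 1 member called higher, at 0.30. Mcl1, another anti-apoptotic gene, had 383 and 416 CPM in BBA against 420 and 378 CPM in WT libraries and was not called.

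Receptor chains and signalling components of the pathway split. Of 17 tested genes for IL-2 family receptors, JAK kinases and STAT factors, 6 were higher and 9 lower in BBA cells, with a median of -0.41, or -0.26 without WT replicate 1. Of the IL-2 receptor chains, Il2ra and Il2rb fell. Il2ra had 717 and 675 CPM in BBA against 1754 and 1976 CPM in WT libraries, and Il2rb had 249 and 277 CPM against 756 and 780 CPM. These were log2 fold changes of -1.42 ± 0.0717 and -1.54 ± 0.0722 (SE). The shared chain Il2rg rose by 0.66, with 604 and 638 CPM in BBA against 382 and 404 CPM in WT libraries. Il7r, the IL-7 receptor chain, fell by 1.95, and Il21r, the IL-21 receptor, rose by 1.19. Among kinases Jak3 fell by 0.92 and Jak2 rose by 0.53, and Stat3, the neighbouring STAT gene, had 329 and 331 CPM in BBA against 338 and 336 CPM in WT libraries and was not called.

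Glycolysis and hypoxia-associated genes were lower nearly throughout. Of 22 glycolysis and sugar transport genes, 20 fell and 2 rose in BBA cells, with a median log2 fold change of -1.04. The largest falls were Aldoc, an aldolase isoform (11.8 and 6.88 CPM in BBA against 218 and 215 CPM in WT libraries), and Slc2a3, the glucose transporter GLUT3 (60.5 and 43.6 CPM against 978 and 1028 CPM). Their log2 fold changes were -4.52 ± 0.170 and -4.27 ± 0.135 (SE). The phosphofructokinase Pfkp, with 268 and 239 CPM in BBA against 723 and 772 CPM in WT libraries, and Pfkfb4 followed at -1.56 and -1.58. The 2 members that rose, named here after their values were seen, were the enolase Eno3 (0.93) and the lactate transporter Slc16a1 (0.69).

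All 15 of 15 hypoxia-associated genes fell, with log2 fold changes from -6.53 to -0.51 and a median of -1.65. Besides Egln3 these included P4ha2, a collagen prolyl hydroxylase, and Vegfa, an angiogenic growth factor, which had 15.1 and 10.3 CPM in BBA against 108 and 113 CPM in WT libraries. Ndrg1, a stress-responsive gene, had 24.2 and 25.2 CPM in BBA against 212 and 202 CPM in WT libraries. The log2 fold changes were -3.95 for P4ha2, -3.11 for Vegfa and -3.07 for Ndrg1.

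Lipid synthesis genes were lower by smaller steps. Of 24 tested genes of cholesterol synthesis and uptake, 14 fell, 2 rose and 8 were not called, with a median of -0.37, or -0.21 without WT replicate 2. Fdps, which makes farnesyl diphosphate, had 225 and 213 CPM in BBA against 508 and 517 CPM in WT libraries (log2 fold change -1.23 ± 0.0598, SE). Stard4, a sterol carrier, differed by -1.22, Mvd by -1.13 and Acat2 by -1.02. Idi1, an isomerase of the pathway that is named after its value was seen, rose by 0.36. Of 13 fatty acid synthesis genes, 7 fell and 3 rose, among the falls the desaturases Scd1 (142 and 104 CPM in BBA against 351 and 364 CPM in WT libraries) and Scd2 (1188 and 1089 CPM against 2350 and 2480 CPM).

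Genes for making ribosomes and nucleotides went the other way. Of 31 ribosome biogenesis genes, 30 were higher in BBA cells and 0 were lower, with a median log2 fold change of 1.01. Utp20, a component of the small-subunit processome, had 249 and 243 CPM in BBA, 237 and 245 CPM in AAB and 54.6 and 69.9 CPM in WT libraries, a log2 fold change of 1.98 ± 0.0962 (SE, edgeR adjusted p = 6.49e-08). Ppan (1.43), Rrp12 (1.35) and the nucleolar protein Nolc1 (1.31) followed on the log2 scale. Nolc1 had 421 and 420 CPM in BBA against 159 and 180 CPM in WT libraries. The precursor ribosomal RNA Rn45s, which poly(A) selection should remove, was also higher, at 4369 and 3165 CPM in BBA, 6712 and 4301 CPM in AAB and 2171 and 2342 CPM in WT libraries. It moved with the genotype, and its part in the result was not tested.

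Of 19 nucleotide synthesis genes, 12 rose and 1 fell, with a median of 0.56. Gart, a trifunctional enzyme of purine synthesis, had 391 and 364 CPM in BBA against 163 and 178 CPM in WT libraries, and Cad, which starts pyrimidine synthesis, had 428 and 467 CPM against 224 and 245 CPM. The log2 fold changes were 1.15 ± 0.0688 and 0.93 ± 0.0694 (SE). The 1 that fell was Impdh1, at -0.80, named after its value was seen, and 2 fell without WT replicate 1.

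Of 11 serine and one-carbon genes, 4 rose and 5 fell. Thymidylate synthase Tyms had 138 and 132 CPM in BBA against 48.2 and 49.6 CPM in WT libraries, while the mitochondrial folate enzyme Aldh1l2 had 0.0913 and 0.153 CPM against 8.23 and 7.37 CPM. The cytosolic folate enzymes Shmt1 and Mthfd1 rose by 1.13 and 0.93 on the log2 scale. Cell cycle genes moved little: of 32, 13 rose and 6 fell, the median was 0.11, and the largest change was Mcm5, of the replicative helicase, at 0.72. Of 16 genes of the TCA cycle 9 rose and 3 fell, but 5 rose without BBA replicate 1, and 1 fell without BBA replicate 2 or without WT replicate 2. Idh3a, of the isocitrate dehydrogenase complex, rose, with 149 and 138 CPM in BBA against 93.7 and 98.3 CPM in WT libraries.

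The MYC network and the ATF4 stress genes leaned lower. Of 9 tested MYC, MAX and MXD genes, 5 fell and 0 rose. The MYC antagonists Mxi1 and Mxd1 led them, with 26.1 and 21.6 CPM in BBA against 142 and 144 CPM in WT libraries for Mxi1, and 18.7 and 18.5 CPM against 99.5 and 76.0 CPM for Mxd1. The log2 fold changes were -2.58 and -2.24. Of 15 ATF4 and stress response genes 10 fell and 2 rose, with a median of -1.43. Trib3, a pseudokinase, had 2.24 and 1.43 CPM in BBA against 25.9 and 27.5 CPM in WT libraries, and Vldlr, a lipoprotein receptor, had 3.10 and 3.21 CPM against 43.9 and 44.3 CPM. Nupr1, a stress-induced nuclear protein, had 1 and 0 counts in BBA against 74 and 63 counts in WT libraries.

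**Figure D3:**
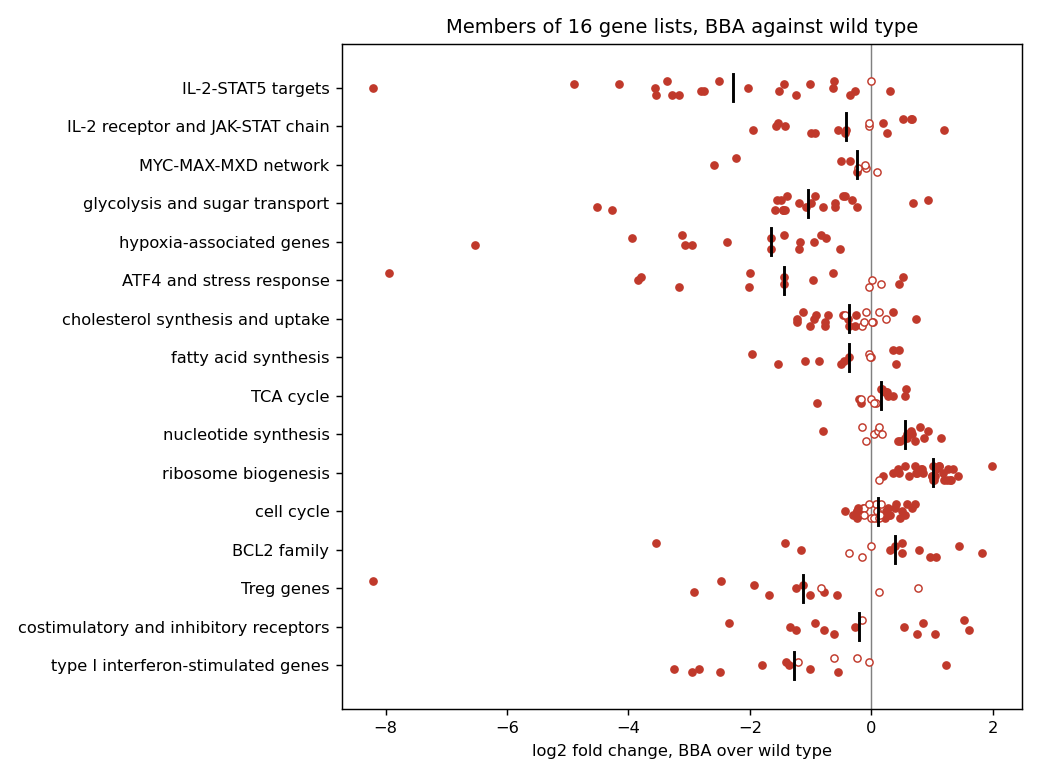
The log2 fold change of BBA over wild type for each tested member of 16 gene lists, 1 point per gene. Filled points were called at an adjusted p below 0.05, open points were not, and the black bar is the list's median. Points of the hypoxia list all lie left of 0, 30 of 31 ribosome biogenesis points are filled and right of 0, and the leftmost stress gene is Nupr1, whose fold rests on 1 count in BBA.

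Cytokine genes diverged, with Il2 itself at the top. Il2 had 104 and 97.2 CPM in BBA, 138 and 133 CPM in AAB and 0.706 and 1.27 CPM in WT libraries. Its fitted level was 101-fold higher in BBA cells (log2 fold change 6.66 ± 0.157, SE, edgeR adjusted p = 5.33e-10). The wild-type libraries held few counts of Il2, so the size of this fold is uncertain and its SE may be too small. Of 16 tested cytokine and chemokine genes 6 rose and 8 fell. Il17f was called higher at a very low level, with 24 and 37 counts in BBA against 1 and 0 counts in WT libraries, too few for a fold change. Lta fell as given above, and Ifng was at 0 and 0.153 CPM against 1.18 and 1.38 CPM, a few counts in any library.

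Genes of helper subsets moved in several directions. Il12rb2, the inducible IL-12 receptor chain of Th1 cells, had 0.958 and 0.560 CPM in BBA against 106 and 59.8 CPM in WT libraries (log2 fold change -6.74 ± 0.328, SE). Eomes, a T-box factor, rose to 62.6 and 34.2 CPM in BBA, against 14.6 and 12.1 CPM in WT libraries. Of 10 Th1 genes 2 rose and 5 fell, and of 8 tested Th2 genes 1 rose and 4 fell, among them the chemokine receptor Ccr4 at -1.59. The Th2 count of lower genes was 2 without BBA replicate 2 or without WT replicate 1, and 1 with the DESeq2 Wald test. Il24 had 0 counts in both BBA libraries against 18.6 and 4.15 CPM in WT libraries, which differ too much from each other for a bound on the fold. It was called lower by edgeR's test but not by DESeq2 (adjusted p = 0.0629). Of 5 tested Th17 genes 3 rose, among them Ahr, a ligand-activated transcription factor, with 3.97 and 5.50 CPM in BBA against 0.941 and 0.921 CPM in WT libraries.

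Of 13 Treg genes 10 fell and 0 rose, with a median of -1.13. After Lrrc32 came Ikzf4 (8.21 and 9.68 CPM in BBA against 74.2 and 60.9 CPM in WT libraries) and Gpr83, at log2 fold changes of -2.92 and -2.47, and Izumo1r at -1.94. Of 19 naive, memory and Tfh genes 6 rose and 6 fell. Bcl6, the lineage factor of follicular helper cells, had 10.1 and 15.1 CPM in BBA against 2.12 and 3.22 CPM in WT libraries (log2 fold change 2.23 ± 0.323, SE). S1pr1, which guides exit from lymphoid organs, had 9.17 and 8.41 CPM in BBA against 56.2 and 51.1 CPM in WT libraries, and Sh2d1a, the adaptor SAP, fell by 2.34.

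Surface receptors and survival genes also split. Tnfrsf9, the costimulator 4-1BB, had 249 and 251 CPM in BBA against 1455 and 1094 CPM in WT libraries, and Icos had 171 and 158 CPM against 449 and 388 CPM. Pdcd1, encoding PD-1, went up, with 257 and 261 CPM in BBA against 99.7 and 81.0 CPM in WT libraries. In all, 6 of 14 such receptors rose and 7 fell. In the BCL2 family 9 of 15 genes rose and 3 fell. The pro-apoptotic Bcl2l11 (BIM) had 177 and 166 CPM in BBA against 60.7 and 65.5 CPM in WT libraries, opposite in direction to Bcl2, and Bcl2a1d, whose near-identical copies may share reads, rose by 1.83.

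Interferon-stimulated genes were mostly lower. Of 14 tested type I interferon-stimulated genes 9 fell and 1 rose, with a median of -1.28. The median was -0.64 without WT replicate 1 and -1.82 without WT replicate 2, where 14 of 19 tested genes fell. Oas3, a viral RNA sensor, had 9.22 and 8.86 CPM in BBA against 93.2 and 47.6 CPM in WT libraries. The wild-type libraries differed from each other by nearly 2-fold, and both lay above the BBA libraries. Of 12 interferon-induced GTPases 5 fell and 1 rose, led by Gbp5 (84.0 and 86.8 CPM in BBA against 318 and 348 CPM in WT libraries) and Gbp2.

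Markers of other cell types moved as well, most of them at low levels. The summed level of 11 myeloid and antigen-presenting cell markers was 66.0 and 69.9 CPM in BBA, 26.2 and 23.2 CPM in AAB and 152 and 161 CPM in WT libraries. Nearly all of it was Cd74, the class II invariant chain, and H2-Ab1, which had 11.6 and 8.30 CPM in BBA against 76.8 and 94.0 CPM in WT libraries. Lyz2 and Csf1r, defining genes of myeloid cells, had 2 and 0 counts over both BBA libraries against 0 and 0 counts over both WT libraries. Itgam and Cd68, of the same list, had 40 and 100 counts against 13 and 118 counts. Of 6 tested markers 3 fell and 1 rose, the macrophage gene Emr1, with 23 and 31 counts in BBA against 0 and 2 counts in WT libraries. The 6 markers of CD8 T and NK cells summed to 8.21 and 8.51 CPM in BBA, 10.3 and 10.4 CPM in AAB and 12.2 and 15.2 CPM in WT libraries, and of 4 tested 1 fell and 1 rose. The riser was Klrk1, an activating receptor, with 43 and 14 counts in BBA against 0 and 3 counts in WT libraries, and it was not called without BBA replicate 1 or without WT replicate 1. The part of these markers in the other results was not tested. The summed B cell markers were between 2.27 and 3.53 CPM in every library.

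The 20 nearest protein-coding neighbours on either side of the Stat5 locus on chromosome 11, by gene order, were called at a share near that of all genes. Of 32 tested, 5 were higher and 12 lower in BBA cells, 53.1% against 57% of all genes, with a median log2 fold change of -0.12. Dhx58, an RNA helicase of antiviral sensing, had the largest change, at -3.02.

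BBA was also set against AAB directly. Both genotypes keep 1 of 4 Stat5 alleles, Stat5a in BBA and Stat5b in AAB. Reads of the kept gene stood at 52.5% of the wild-type mean in BBA and at 20.2% in AAB cells, where some may not come from the kept copy. The identity of the last copy and the amount of transcript left therefore cannot be told apart in this contrast. Of 12392 genes 150 (1.21%) were higher and 162 (1.31%) lower in BBA than in AAB cells, 2.52% of those tested, and 113 of the 312 differed more than 2-fold. For comparison, AAB against WT gave 3615 higher (29.2%) and 3517 lower genes (28.4%), 57.6% in all. Called members were 4 of 22 IL-2-STAT5 targets, 4 of 22 glycolysis genes, 3 of 15 hypoxia genes, 4 of 24 cholesterol genes and 4 of 12 interferon-induced GTPases, in each case a larger share than the 2.52% of all genes. Of 31 ribosome biogenesis genes and of 19 nucleotide synthesis genes 0 were called. A gene that was not called may still differ. The counts of higher and lower genes were 52 and 50 without AAB replicate 1, 74 and 88 without AAB replicate 2, and 87 and 81 without BBA replicate 2.

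Apart from Stat5a, Cd74 showed the largest excess in BBA over AAB cells among called genes, predicted transcripts aside, with a mean log2 CPM of at least 4 and no overlap between libraries. It had 47.2 and 52.6 CPM in BBA, 9.02 and 8.39 CPM in AAB and 53.3 and 53.0 CPM in WT libraries. BBA thus stood 2.51 above AAB on the log2 scale (edgeR adjusted p = 7.77e-07) and was not called against wild type (-0.09 ± 0.0908, SE, edgeR adjusted p = 0.413). The class II gene H2-Eb1, below that level, had 54 and 67 counts in BBA, 4 and 4 counts in AAB and 106 and 58 counts in WT libraries, and stood 3.39 above AAB (edgeR adjusted p = 0.00712). Tnfaip8, an apoptosis regulator, had 179 and 179 CPM in BBA, 80.8 and 81.9 CPM in AAB and 189 and 182 CPM in WT libraries. Pdk1, the kinase that restrains pyruvate dehydrogenase, lay between, with 135 and 91.1 CPM in BBA, 43.3 and 40.6 CPM in AAB and 306 and 287 CPM in WT libraries. The DNA deaminase Apobec3 was likewise intermediate, with 108 and 95.2 CPM in BBA, 44.9 and 41.7 CPM in AAB and 235 and 220 CPM in WT libraries. Smo also stood higher in BBA than in AAB cells, by 1.25.

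Among genes lower in BBA than in AAB cells, Atp10d, a flippase, had 24.1 and 18.6 CPM in BBA, 81.5 and 86.0 CPM in AAB and 31.9 and 21.1 CPM in WT libraries. Trim16 had 18.3 and 17.1 CPM in BBA, 62.6 and 63.5 CPM in AAB and 23.6 and 21.8 CPM in WT libraries. For these genes AAB libraries lay above those of both other genotypes. Ctse, the protease cathepsin E, had 10.0 and 9.68 CPM in BBA and 112 and 107 CPM in AAB, but its wild-type libraries did not agree (51.6 and 6.22 CPM). Dapl1, Kndc1, Zan, Dnah8 and Utf1 were the others, with log2 differences between -1.68 and -1.29. Within the target list Socs2 was higher in BBA than in AAB cells by 1.22 (adjusted p = 0.0115) and Cish by 0.45 (adjusted p = 0.0319), while Bcl2 was lower by 0.42 (adjusted p = 0.0242), all by edgeR's test. Il2 was lower in BBA than in AAB cells by 0.43 (edgeR adjusted p = 0.0125).

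**Figure D4:**
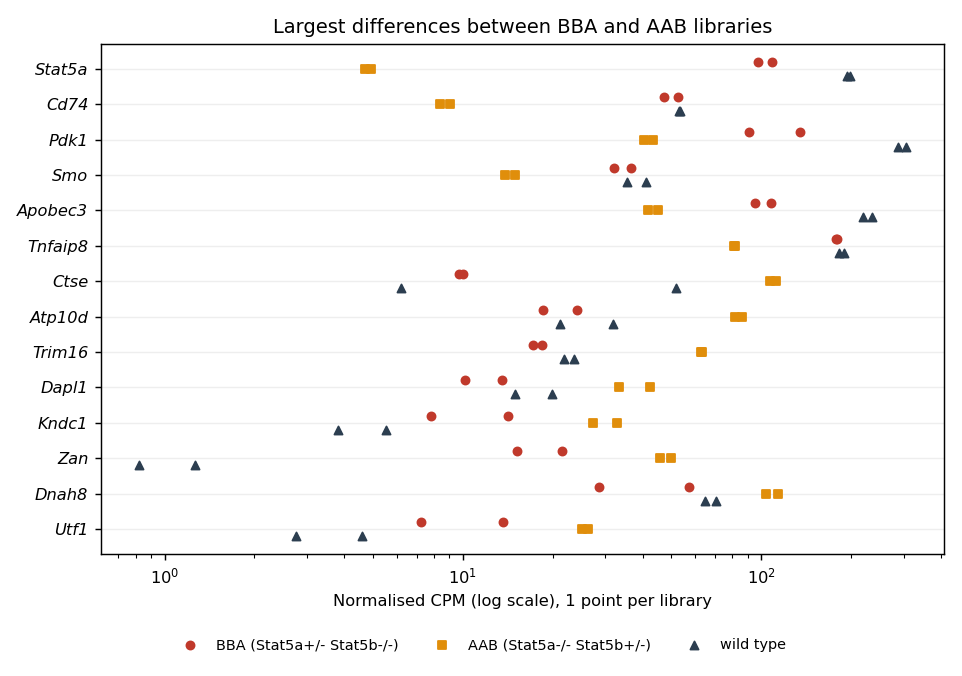
Normalised CPM on a log axis for 6 of the 8 genes highest and for the 8 lowest in BBA relative to AAB, 1 point per library, with wild-type libraries beside them. Cd74 sits at 47.2 and 52.6 CPM in BBA and 9.02 and 8.39 CPM in AAB libraries, and Trim16 at 18.3 and 17.1 against 62.6 and 63.5 CPM.

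The effect of keeping 1 Stat5a copy was then set beside complete loss, measured in other libraries. S5KO cells carry floxed Stat5a and Stat5b with Cd4-Cre, which acts in developing T cells. In 3 experiments S5KO and wild-type cells received only control retroviral vectors and then human IL-2, at 6 libraries per genotype. The cultures, the vectors and the time in IL-2 differ from those of BBA cells, so genotype and culture cannot be told apart in this comparison. Each effect was taken within its own experiment. The difference between the effects was called for 53.7% of genes. BBA lay above complete loss for 4316 (29.8%) and below it for 3454 (23.9%). With RLE scaling, an alternative to TMM, the counts were 3962 and 3907, so the lean to 1 side depends on the scaling. Complete loss called 4910 genes higher (33.9%) and 5006 lower (34.6%) of 14480 tested, 68.5% in all. Of the 3560 genes higher in BBA cells, 917 were also higher with complete loss and 1894 were lower, 25.8% and 53.2%. Of the 3509 genes lower in BBA cells, 1353 were lower and 1251 higher with complete loss, 38.6% and 35.7%. Over all 12391 genes in this comparison, 39.5% were lower and 34.9% higher with complete loss. The same counts are 21.2%, 38.7%, 27.6% and 29% of the genes called in those directions by complete loss.

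Of 22 IL-2-STAT5 targets 18 were lower in both settings, against 1353 of all 12391 genes. Their medians were -2.27 in BBA and -2.14 with complete loss. The sizes of the effects differed for 14 of the 22 by the test of the difference, 8 with BBA above and 6 with BBA below complete loss, against 53.7% of all genes. Lrrc32 was at -8.21 in BBA and -6.15 with complete loss, a difference of -1.96 (edgeR adjusted p = 0.0248). Egln3, of the hypoxia list, and the targets Lta, Pim1 and Socs2 had log2 fold changes of -6.53, -4.15, -3.57 and -4.89 in BBA cells and -5.93, -3.71, -3.83 and -5.18 with complete loss, and none of these 4 was called in edgeR's test of the difference (adjusted p between 0.163 and 0.328). Glycolysis genes were lower in both settings for 19 of 22, but the median was -1.04 in BBA and -2.88 with complete loss, and 16 of 22 were called above and 3 below complete loss. Slc2a3 was among those below, at -4.27 in BBA and -1.50 with complete loss (difference -2.67, edgeR adjusted p = 1.33e-08). In cholesterol synthesis 22 of 24 were called less reduced, at medians of -0.37 and -2.17. Il2ra fell by 1.42 in BBA cells and by 4.23 with complete loss, a difference of 2.91 (edgeR adjusted p = 6.97e-08).

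Ribosome biogenesis genes lay in opposite directions. Of 31 genes 29 were higher in BBA and lower with complete loss, against 1894 of all 12391 genes. Their medians were 1.01 and -1.43. All 31 were called above complete loss in the test of the difference, against 29.8% of all genes. Utp20 was at 1.98 in BBA and -1.09 with complete loss. Nucleotide synthesis followed, with 12 of 19 in opposite directions and all 19 called above complete loss. The levels of Utp20 ranged from 15.5 to 31.2 CPM in S5KO and from 40.5 to 69.3 CPM in wild-type vector libraries. Myc differed by -0.36 in BBA and -1.62 with complete loss.

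Genes with large differences between the settings and a mean log2 CPM of at least 4 included Ak4, a mitochondrial adenylate kinase, and Scd1. Ak4 had 71.0 and 62.5 CPM in BBA against 102 and 114 CPM in WT libraries, a log2 fold change of -0.69, and was at -5.54 with complete loss. Scd1 was at -1.54 and -6.17. Grwd1, Srm and Bcat1, like Trmt61a, rose by 1.82, 0.99, 1.23 and 2.03 in BBA cells and were at -1.82, -2.62, -2.33 and -1.61 with complete loss. In the opposite sense Mxd4, a MYC antagonist, had 14.5 and 17.1 CPM in BBA against 18.0 and 18.9 CPM in WT libraries and was not called, while S5KO vector libraries ranged from 236 to 332 CPM against 12.5 to 20.1 CPM in wild type. Ypel2, Pik3ip1, Klhl24, Ikzf2 and Cpm (carboxypeptidase M) fell by 1.26 to 1.94 in BBA cells and rose by 1.74 to 3.18 with complete loss. Fam132a fell in both, by 5.22 in BBA cells and by 0.69 with complete loss.

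**Figure D5:**
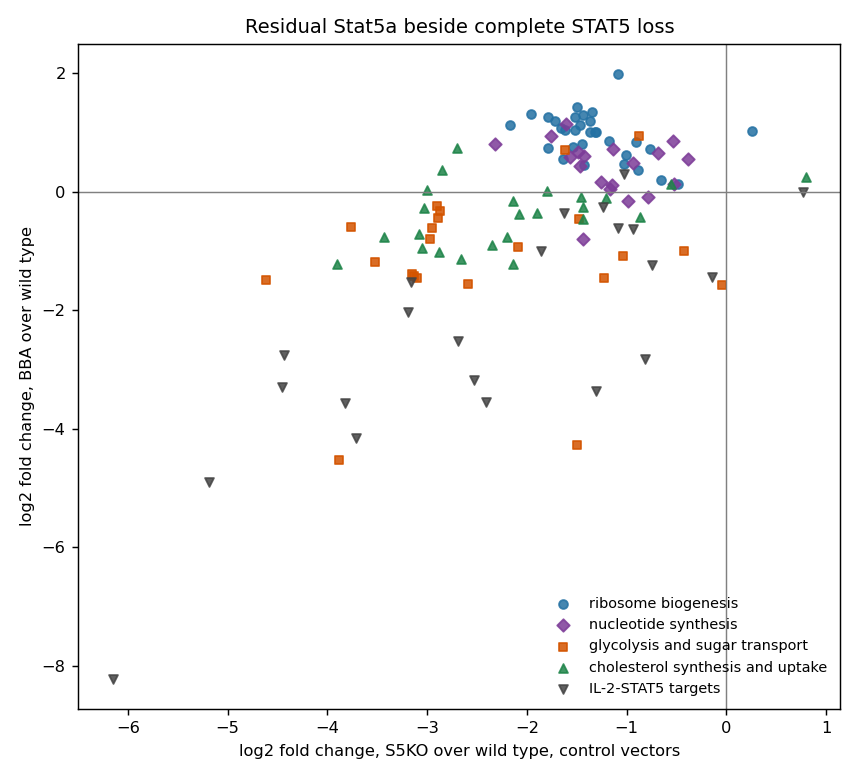
The log2 fold change of BBA over wild type (vertical) against that of S5KO over wild type with control vectors (horizontal) for tested members of 5 gene lists, 1 point per gene. The 2 axes come from different libraries and cultures. Ribosome biogenesis genes lie above 0 on the vertical axis and, but for 1 gene, left of 0 on the horizontal axis, with medians of 1.01 and -1.43, while IL-2-STAT5 targets lie mostly in the lower left, with medians of -2.27 and -2.14.

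Another setting was complete loss in a 3-day Th0 culture with no added cytokine or blocking antibody, at 2 libraries per genotype. It called 583 genes higher (3.81%) and 410 lower (2.68%) of 15299, 6.49% in all. Leaving out any 1 of its 4 libraries left 194 to 371 higher and 210 to 273 lower. Among 12334 genes tested in both experiments, 397 were lower there (3.22%). Of these, 333 (83.9%) were also lower in BBA cells and 23 (5.79%) were higher. The 333 are 9.52% of the genes lower in BBA cells. Of 566 higher there (4.59%), 263 (46.5%) were higher in BBA cells and 92 (16.3%) were lower. The 263 are 7.44% of the genes higher in BBA cells. Over all 12392 genes of the BBA test, 28.7% were called higher and 28.3% lower. Of 23 tested IL-2-STAT5 targets 14 fell and 0 rose. Of 22 glycolysis genes 11 fell, and of 31 ribosome biogenesis genes 0 were called in either direction, with a median of -0.36. The log2 fold changes of these 31 ran from -0.90 to 0.03. Libraries varied more in this experiment, with a common biological coefficient of variation of 0.24 against 0.0685 for BBA, AAB and WT. A gene not called in the Th0 experiment may still differ. Il2, which rose in BBA cells, was at 23.3 and 29.2 CPM in S5KO against 30.5 and 42.4 CPM in wild-type Th0 libraries. It was not called there.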

How the data were processed

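The deposited values are whole-number read counts per gene in each library, made by the authors from poly(A)-selected RNA. Per the submitters' processing notes, TopHat2, Bowtie2 and HTSeq were used with mm9. Their versions, the annotation and the use of strand are not given in the sources used here, so overlapping and antisense genes, and the paralogs Stat5a and Stat5b, may share reads. Groups were taken from the sample titles, and 40 further columns of these tables, which hold other samples, were not used.

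Counts were tested with edgeR 4.0.16 in R 4.3.3: TMM scaling, filterByExpr and the quasi-likelihood test, with Benjamini-Hochberg adjustment over all genes tested and a threshold of 0.05. One model held the 6 libraries of the BBA, AAB and WT groups, one held these with 12 vector libraries, and one held the Th0 experiment. Each SE given is the absolute log2 fold change divided by the square root of the quasi-likelihood test's F statistic. It was not estimated on its own and can be too small where a group has few counts. Each model was tested on simulated data. Named genes were the 15 (or 8) largest called changes per direction with non-overlapping libraries and a mean log2 CPM of at least 4, and up to 4 members per list. Members and lists were chosen with earlier results of these data known. BBA and WT share replicate numbers, but no label links equal numbers. Alternatives were RLE scaling, no filter, DESeq2 1.42.0, a replicate block, fewer groups, leaving out libraries and, chosen after seeing the data, thinned libraries and single vector experiments. Some genes chosen by the rule are not reported here.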

Additional observations from a re-analysis of the deposited data

Results flagged for a closer look

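In edgeR's test of the difference itself, 7770 of 14480 genes (53.7%) differed between the BBA effect and complete loss with control vectors. The adjusted p was below 0.05 for each, and 15 of these genes are given here. Each value is the BBA effect minus the complete-loss effect on the log2 scale. BBA lay above complete loss by 4.96 for Ak4, 4.74 for Scd1, 3.86 for Kifc3, 3.76 for Stat5a, 3.74 for Grwd1, 3.73 for Trmt61a, 3.71 for Srm and 3.66 for Bcat1. It lay below complete loss for Ypel2 (-4.80), Pik3ip1 (-4.55), Fam132a (-4.42), Mxd4 (-4.25), Ikzf2 (-3.97), Klhl24 (-3.96) and Cpm (-3.53). The 15 genes were chosen for this difference, and genotype and culture cannot be told apart in it. For Stat5a a difference was set by the design, since BBA cells keep a copy of the gene and complete-loss cells do not.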

How the results depend on the processing

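Counts of genes called in BBA against WT stayed within 1.5 times under every alternative run, at 2931 to 3499 higher and 2937 to 3439 lower when 1 library was left out. BBA against AAB depended most on the settings: 393 higher and 433 lower with no filter on low counts, 242 and 307 with the replicate block, and 52 to 153 and 50 to 162 with 1 library left out. AAB against WT ranged over 2862 to 3565 and 2786 to 3519, the difference from complete loss over 3433 to 3780 and 2916 to 3873, and complete loss in Th0 over 194 to 371 and 210 to 273. A group left with 1 library was assumed to vary like the others. The 4316 genes called above complete loss in the main fit exceed the count in every fit with 1 library left out. With the replicate block BBA against WT gave 3793 higher and 3716 lower genes. The correlation of replicate differences was 0.13 between BBA and WT, and with 2 numbers and no label to link them the samples share only a number. Of 1716 pairs of a named gene and an alternative, 21 changed the call or direction against WT. The 1 reversal was Ctse, at 0.67 without WT replicate 1 against -2.38 without WT replicate 2. The cause was not tested. Wild-type depth limits what can be said of genes with few counts, such as Il2, Ifng, Il17f and Nupr1.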

Other observations

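Amino acid transporters and T cell surface genes add to the description of BBA cells. Of 12 amino acid transporter genes 4 were higher and 4 lower than in WT cells, and 0 of 12 were called between BBA and AAB. Slc38a1, a glutamine transporter, had 438 and 453 CPM in BBA against 250 and 269 CPM in WT libraries, while the glycine transporter Slc6a9 had 1.14 and 1.48 CPM against 7.76 and 14.4 CPM. Of 12 CD4 T cell markers 3 rose and 2 fell. Themis, a regulator of T cell receptor signalling, had 35.5 and 25.4 CPM in BBA against 195 and 176 CPM in WT libraries, and the adhesion molecule Cd2 had 128 and 115 CPM against 574 and 489 CPM. Cd5, an inhibitory receptor, was higher, at 850 and 888 CPM in BBA against 382 and 460 CPM in WT libraries. Fasl, the death receptor ligand, also rose, with 39.9 and 38.7 CPM in BBA against 18.8 and 15.2 CPM in WT libraries. The long noncoding RNA Neat1, counted among signs of RNA handling, had 66.7 and 69.5 CPM in BBA against 268 and 245 CPM in WT libraries, and its part in the other results was not tested.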
